A study of Mus musculus with 2 samples.

Results

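Gfi1b, its paralog Gfi1 and the genes of the corepressor that both proteins recruit, Kdm1a, Rcor1, Hdac1 and Hdac2, were examined for binding of EP300 in the liver of mouse embryos. The 6 genes were chosen by name, and by a value of these same data, since the strongest peak of the list lies near Gfi1b. Their peaks were selected on position: every peak of the deposited optimal list whose summit lay within 50 kb of any annotated transcription start site (TSS) of a member. This gave 24 peaks of the 17043 on the 19 autosomes and X (17055 in all), so the presence and the signals of these peaks are a description, with no test.

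GFI1B is a zinc finger repressor that the red cell and platelet lineages need. GFI1 is its counterpart in stem cells, lymphoid precursors and granulocytes, and both bind a DNA word with the core AATC. Through a short amino-terminal SNAG domain they bind KDM1A (LSD1), which removes methyl groups from lysine 4 of histone H3. RCOR1 (CoREST) is the scaffold that ties KDM1A to nucleosomes and to the histone deacetylases HDAC1 and HDAC2. EP300 acts in the opposite direction, as an acetyltransferase and coactivator at active enhancers and promoters, and elements on the far side of Gfi1b have been described as its enhancers.

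The series holds 1 group of 2 libraries, made by chromatin immunoprecipitation with an antibody against EP300 and sequencing. The tissue was liver of strain B6NCrl embryos at 14.5 days, both sexes mixed, and livers of several dissections were pooled and ground to powder. The labels call the libraries biological replicates 1 and 2 but give them the same biosample label, so the spread between them may be technical. There is no second genotype, treatment or time, and therefore no contrast.

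Peak lists were analysed here, and the number of reads behind them is unknown. Signal is the peak caller's own value for each peak, and has no physical unit here. The optimal and conservative peaks keep the signal of the pooled list, while each library's list has its own scale. Values are therefore compared between libraries by rank, with 1 for the strongest peak, and not by size. In a whole organ, binding in fewer cells and less binding per cell cannot be told apart. An optimal peak lay within 50 kb of 53.7% of all protein-coding genes, and the median of the strongest signals of those genes was 73.5. Of 6 erythroid marker genes, 6 had such a peak, with a median of 282.6. For 6 hepatocyte markers it was 5 genes with a median of 22.7, and Foxa2 had none. Alb and Afp had the same strongest peak, which gives that median. Macrophage markers had a peak at 1 of 4 genes (29.1), endothelial markers at 3 of 4 (median 128.1), megakaryocyte markers at 3 of 4 (115.3) and granulocyte markers at 3 of 4 (71.1). The granulocyte genes Elane and Prtn3 likewise had the same strongest peak, of 71.1. The distance of these peaks from the marker varied. That of Lyve1 (241.2) lay 43807 bp from its TSS in an intron of Rnf141, and that of Gp1ba (115.3) 90 bp from its TSS. The part of each cell type in the member peaks was not tested.

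The sequences below carry the pattern described in the rest of the text. For the peaks they run from 100 bases before to 100 bases after the summit on the plus strand of GRCm38 (mm10). For the promoters they are the 250 bases before the TSS, from RefSeq on GRCm38.p6, 5′ to 3′ along the gene. Capitals mark GATA words (AGATAA, and AGATAG, and TGATAA, and TGATAG, on either strand) and the GFI1 word (AATCAC on either strand). The first set is the 4 strongest peaks of the Gfi1b locus, shown because 3 of them hold GATA words and the third in strength holds none.
Gfi1b peak 8, chr2:28602256-28602456: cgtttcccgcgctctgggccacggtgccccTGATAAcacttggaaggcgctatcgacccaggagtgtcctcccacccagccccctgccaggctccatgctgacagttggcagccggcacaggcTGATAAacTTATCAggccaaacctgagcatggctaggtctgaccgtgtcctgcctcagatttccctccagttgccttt
Gfi1b peak 11, chr2:28598155-28598355: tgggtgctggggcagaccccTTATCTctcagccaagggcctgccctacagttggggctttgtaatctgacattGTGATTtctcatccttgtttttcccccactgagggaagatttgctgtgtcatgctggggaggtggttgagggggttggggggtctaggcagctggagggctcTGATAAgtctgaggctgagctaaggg
Gfi1b peak 6, chr2:28616990-28617190: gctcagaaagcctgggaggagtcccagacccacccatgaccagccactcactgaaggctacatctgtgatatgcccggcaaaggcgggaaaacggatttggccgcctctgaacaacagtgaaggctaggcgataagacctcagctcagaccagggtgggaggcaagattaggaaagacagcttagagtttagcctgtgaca
Gfi1b peak 13, chr2:28596163-28596363: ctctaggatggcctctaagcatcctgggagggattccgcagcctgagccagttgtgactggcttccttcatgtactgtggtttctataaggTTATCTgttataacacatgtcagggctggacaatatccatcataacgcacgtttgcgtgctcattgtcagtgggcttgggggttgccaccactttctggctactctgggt

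The second set gives the strongest peak of each other member that had one, shown to set their GATA words beside those of Gfi1b.
Gfi1 peak 1, chr5:107759240-107759440: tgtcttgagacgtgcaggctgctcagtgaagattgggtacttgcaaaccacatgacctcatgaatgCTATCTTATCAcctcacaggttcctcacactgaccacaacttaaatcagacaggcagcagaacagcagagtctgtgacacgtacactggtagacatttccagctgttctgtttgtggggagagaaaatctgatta
Rcor1 peak 1, chr12:110999933-111000133: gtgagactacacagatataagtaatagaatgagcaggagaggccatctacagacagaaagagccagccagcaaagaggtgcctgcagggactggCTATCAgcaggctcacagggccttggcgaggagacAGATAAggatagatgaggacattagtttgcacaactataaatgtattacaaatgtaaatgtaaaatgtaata
Hdac1 peak 2, chr4:129557337-129557537: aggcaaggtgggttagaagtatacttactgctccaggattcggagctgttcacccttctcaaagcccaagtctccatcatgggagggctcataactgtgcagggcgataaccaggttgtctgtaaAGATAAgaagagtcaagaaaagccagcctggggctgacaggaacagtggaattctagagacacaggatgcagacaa

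The third set gives a promoter with an optimal peak and a GATA word, that of Gfi1b, and a promoter without such a word, that of Hdac2. The peak at the Hdac2 promoter is in the conservative list but not in the optimal one. RefSeq promoters were matched for 5 of the 6 members, all but Hdac1.
Gfi1b promoter, chr2:28621983-28622232, minus strand: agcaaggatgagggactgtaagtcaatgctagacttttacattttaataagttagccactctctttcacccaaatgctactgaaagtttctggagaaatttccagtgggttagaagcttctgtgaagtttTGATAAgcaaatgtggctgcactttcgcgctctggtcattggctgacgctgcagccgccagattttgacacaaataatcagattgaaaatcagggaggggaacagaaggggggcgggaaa
Hdac2 promoter, chr10:36974294-36974543, plus strand: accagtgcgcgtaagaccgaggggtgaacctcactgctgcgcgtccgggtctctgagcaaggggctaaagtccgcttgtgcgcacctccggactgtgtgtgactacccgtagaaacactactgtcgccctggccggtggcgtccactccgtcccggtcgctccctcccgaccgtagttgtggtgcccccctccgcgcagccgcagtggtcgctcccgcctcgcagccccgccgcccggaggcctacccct

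The members differed widely in how much EP300 lay around them. Gfi1b (ENSMUSG00000026815.14, chr2:28609450-28621982, minus strand) had 16 peaks, Rcor1 (ENSMUSG00000037896.17, chr12:111039351-111115901, plus strand) had 5, Hdac1 (ENSMUSG00000028800.15, chr4:129516104-129542713, minus strand) had 2 and Gfi1 (ENSMUSG00000029275.18, chr5:107716657-107726036, minus strand) had 1. Kdm1a (ENSMUSG00000036940.15, chr4:136550540-136602723, minus strand) and Hdac2 (ENSMUSG00000019777.16, chr10:36974544-37001889, plus strand) had none in the optimal list. A peak was thus present at 4 of 6 members, against 53.7% of the 21728 protein-coding genes. Within 20 kb it was 3 of 6 members, against 38.6% of genes. In the conservative list, a second deposited list with 15728 peaks, all 6 members had a peak within 50 kb, against 52.1% of genes. The Gfi1b peaks made up 77.0% of the summed signal of the 24.

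Gfi1b stood near the top of all protein-coding genes by each of the 3 quantities. No gene had a stronger peak, 28 genes had a higher summed signal than its 1819.7, and 66 had more than 16 peaks. The strongest signal reached 145.9 at Gfi1, 120.6 at Hdac1 and 71.0 at Rcor1, on the scale of the optimal list. These lay above the strongest peak of 85.3%, 81.8% and 72.7% of all protein-coding genes, counting those with no peak as lower. Among the genes with a peak the median was 73.5, so Rcor1 lay close to the middle of that set.

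**Figure D1:**
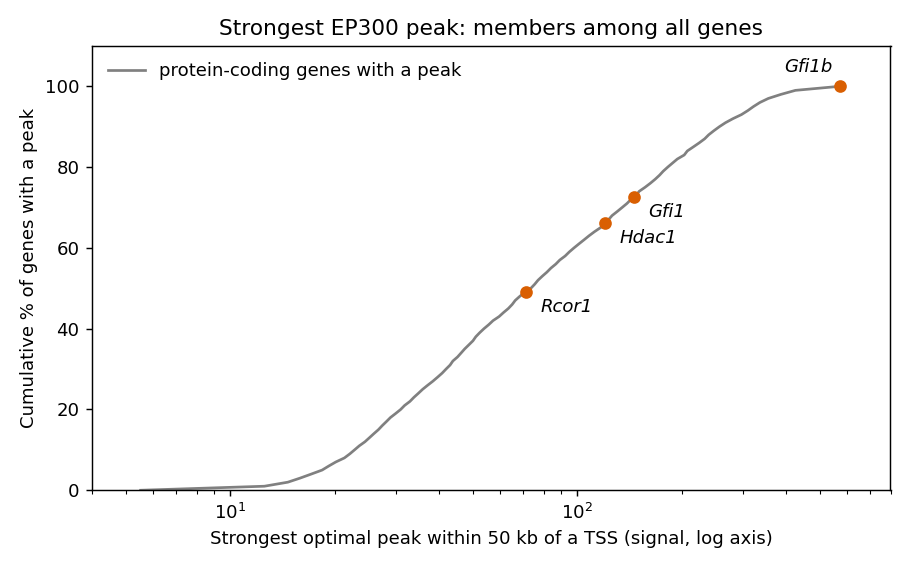
Cumulative percentage of the protein-coding genes with an optimal peak (vertical axis) by the signal of their strongest peak within 50 kb of a TSS (horizontal log axis, no unit); orange points are the 4 members with a peak. Gfi1b lies at the end of the curve with 570.3, and Gfi1, Hdac1 and Rcor1 lie at 145.9, 120.6 and 71.0.

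The 16 Gfi1b peaks were spread over 80063 bp and are numbered here from upstream to downstream. Their signals ran from 12.0 to 570.3 with a median of 42.8, and the 3 strongest held 63.9% of the sum. The 7 intergenic peaks, all downstream of the gene, held 68.8% of it, the 6 promoter peaks 16.5% and the 3 intronic peaks 14.7%. Most of the signal therefore lay past the end of the gene.

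**Figure D2:**
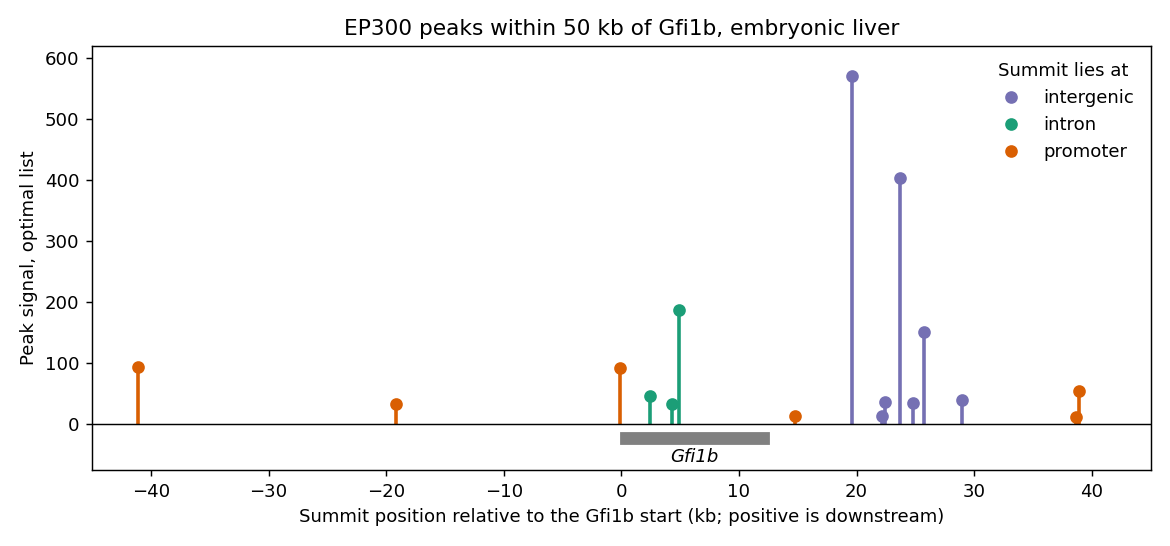
Signal in the optimal list (vertical axis, no unit) of the 16 peaks within 50 kb of Gfi1b, by summit position relative to the start of the gene (horizontal axis, kb, positive is downstream); colour gives the location of the summit and the grey bar is the gene body. The 2 highest stems, 570.3 and 404.4, stand downstream of the gene, and the promoter peak at the start reaches 91.7.

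Peak 8 (chr2:28602154-28602534) is the strongest of the optimal list. Its summit lay 7094 bp beyond the end of Gfi1b, 19.6 kb downstream of the gene's start and 13049 bp from the nearest annotated Gfi1b TSS. Its signal was 308.1 in replicate 1, where the next peak had 284.8, and 268.0 in replicate 2, where the next peak had 265.3. It was the first in both libraries, by a margin that was small in each. In the optimal list it was 1.05 times the second peak (570.3 against 544.1). The same summit is within 50 kb of 3 other protein-coding genes: Gtf3c5 (18605 bp), which encodes a subunit of the RNA polymerase III factor TFIIIC, the tumour suppressor gene Tsc1 (38872 bp) and Cel (38953 bp), which encodes a lipase of the pancreas. Position alone does not say which of the 4 genes the peak serves.

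Peak 11 (chr2:28598032-28598456) followed at 404.4, rank 102 of the optimal list, 23.7 kb downstream of the start of Gfi1b. It had a signal of 216.0 and rank 71 in replicate 1, and 194.2 and rank 135 in replicate 2. Peak 13 (chr2:28596158-28596345), 25.7 kb downstream, reached 151.9 in the optimal list and ranked 2116 and 1873 in replicates 1 and 2. Peaks 8, 11 and 13 form the strong part of the downstream group, and both libraries held all 3. Between and beyond them lay peaks 9, 10, 12 and 14, with signals of 13.5, 37.4, 34.8 and 39.4. Peaks 9 and 10 overlap, as do peaks 15 and 16. The nearest protein-coding TSS of peaks 11 to 14 is that of Gtf3c5, not Gfi1b.

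Within the gene, peak 6 (chr2:28616978-28617203) was the strongest at 187.7, in an intron 4.9 kb downstream of the start. It ranked 1633 in replicate 1 and 1267 in replicate 2. The other intronic peaks, 4 and 5, lay 2.4 and 4.3 kb downstream with signals of 46.1 and 33.3. Peak 3 (chr2:28621986-28622120), at the promoter of Gfi1b itself with its summit 81 bp upstream, had a signal of 91.7. Its values were 43.5 and rank 3895 in replicate 1, and 59.3 and rank 2889 in replicate 2. The promoter peak was weaker than both the intronic peak 6 and the downstream peaks 8, 11 and 13 in the optimal list and, by rank, in each library.

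The remaining Gfi1b peaks lay at start sites of other genes. Peak 2, with a signal of 32.9, lay 55 bp from a Tsc1 TSS and outside the gene. Peak 1, with 94.6, lay inside Tsc1, 284 bp from another of its annotated TSSs. Peaks 15 and 16 were at the promoter of Gtf3c5, with 12.0 and 55.5. Peak 7, at 14.2, lay 980 bp from the start of the annotated miRNA gene Gm22824. Of the 16 peaks, 14 were also within 50 kb of a Tsc1 TSS, 14 of a Gtf3c5 TSS, 10 of a Cel TSS and 6 of a Ralgds TSS. Ak8 and Spaca9 shared 1 each. The count of 16 is thus a property of the neighbourhood as much as of Gfi1b: given only to the nearest protein-coding gene, 8 of the peaks fall to it.

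Gfi1, the paralog, had a single peak. It lay 33304 bp upstream of the nearest Gfi1 TSS (chr5:107759263-107759431), inside an intron of Evi5, a gene for a cell cycle regulator. Its signal was 56.7 at rank 2872 in replicate 1, 88.2 at rank 1663 in replicate 2 and 145.9 in the optimal list. No peak of the pooled list, which was called on both libraries together and holds 300000 peaks, had its summit within 1 kb of the gene's first TSS. The 2 paralogs therefore differed in the placing of EP300: 12 optimal peaks within 20 kb for Gfi1b and 0 for Gfi1. The single peak of Gfi1 became 2 with as many top peaks of replicate 1 alone, and 3 optimal peaks lay within 100 kb.

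Rcor1, the CoREST scaffold, had 5 peaks, all upstream of its start. The strongest (chr12:110999863-111000202), 39318 bp upstream in an intron of the noncoding gene 6030440G07Rik, had a signal of 32.9 at rank 5151 in replicate 1 and 35.1 at rank 5105 in replicate 2. Its rank was thus nearly the same in both libraries, and its optimal signal was 71.0. The next were peak 3, intergenic and 10626 bp upstream, at 51.8, and peak 2, 29573 bp upstream in the same noncoding gene, at 36.2. Peak 5, at the promoter with its summit 317 bp upstream, had 18.8 and was not in the conservative list. Peak 4, at 5.53, overlaps peak 3 and ranked only 250273 in the pooled list. Of these peaks 4 were also within 50 kb of Ankrd9, the neighbouring gene.

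A stronger EP300 peak lay just outside the window of Rcor1. At 64813 bp from its nearest TSS (chr12:110974389-110974694) the optimal signal was 355.1, rank 219, with ranks of 314 and 144 in replicates 1 and 2. This is 3717 bp from the TSS of Ankrd9. A window of 100 kb thus gives Rcor1 9 peaks, with a strongest one of 355.1 in place of 71.0.

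Hdac1, one of the paired deacetylase genes, had 2 peaks, both upstream. Peak 2 (chr4:129557390-129557518), 14724 bp upstream, had its summit in Lck, which encodes a kinase of T cells, and 650 bp from a Lck TSS. It reached 60.9 at rank 2650 in replicate 1, 56.5 at rank 3068 in replicate 2 and 120.6 in the optimal list. Peak 1 (chr4:129588856-129589195), intergenic and 46313 bp upstream, reached 42.5 at rank 4001 in replicate 1, 48.9 at rank 3609 in replicate 2 and 94.6 in the optimal list. The nearest protein-coding TSS of peak 1 was that of Eif3i, a translation factor gene 6742 bp away, so neither peak had Hdac1 as its nearest gene. Both peaks were also within 50 kb of a TSS of Eif3i, Fam167b, Lck and Tmem234. Ccdc28b, Dcdc2b, Iqcc and Marcksl1 shared 1 peak each. At the Hdac1 promoter the pooled list held a peak of 20.6, which was in neither thresholded list. Replicate 1 had it at rank 34266, and replicate 2 had no summit there within 100 bp.

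Hdac2 and Kdm1a, without an optimal peak, were not without signal in the longer lists. At the Hdac2 promoter (chr10:36974161-36974500) the pooled signal was 28.7, with 13.1 at rank 12354 in replicate 1 and 11.5 at rank 14680 in replicate 2. Both libraries held it at a middling rank, and it was in the conservative list but not in the optimal one. As many as 6184 optimal peaks had a lower signal, and 2352 conservative peaks in all were missing from the optimal list, so the absence of Hdac2 depends on which list is read.

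For Kdm1a, the demethylase, the strongest pooled peak in the window lay 28048 bp from a TSS in an intron of Luzp1 (chr4:136524324-136524663). It had 22.3 in the pooled list, 12.6 at rank 12824 in replicate 1 and 10.5 at rank 16172 in replicate 2. Of the 2 thresholded lists, only the conservative one held it. The peak at the Kdm1a promoter had a pooled signal of 11.9, ranked 30447 and 285191 in replicates 1 and 2, and was in neither thresholded list. Its rank in replicate 2 is close to the end of that library's list of 300000.

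**Figure D3:**
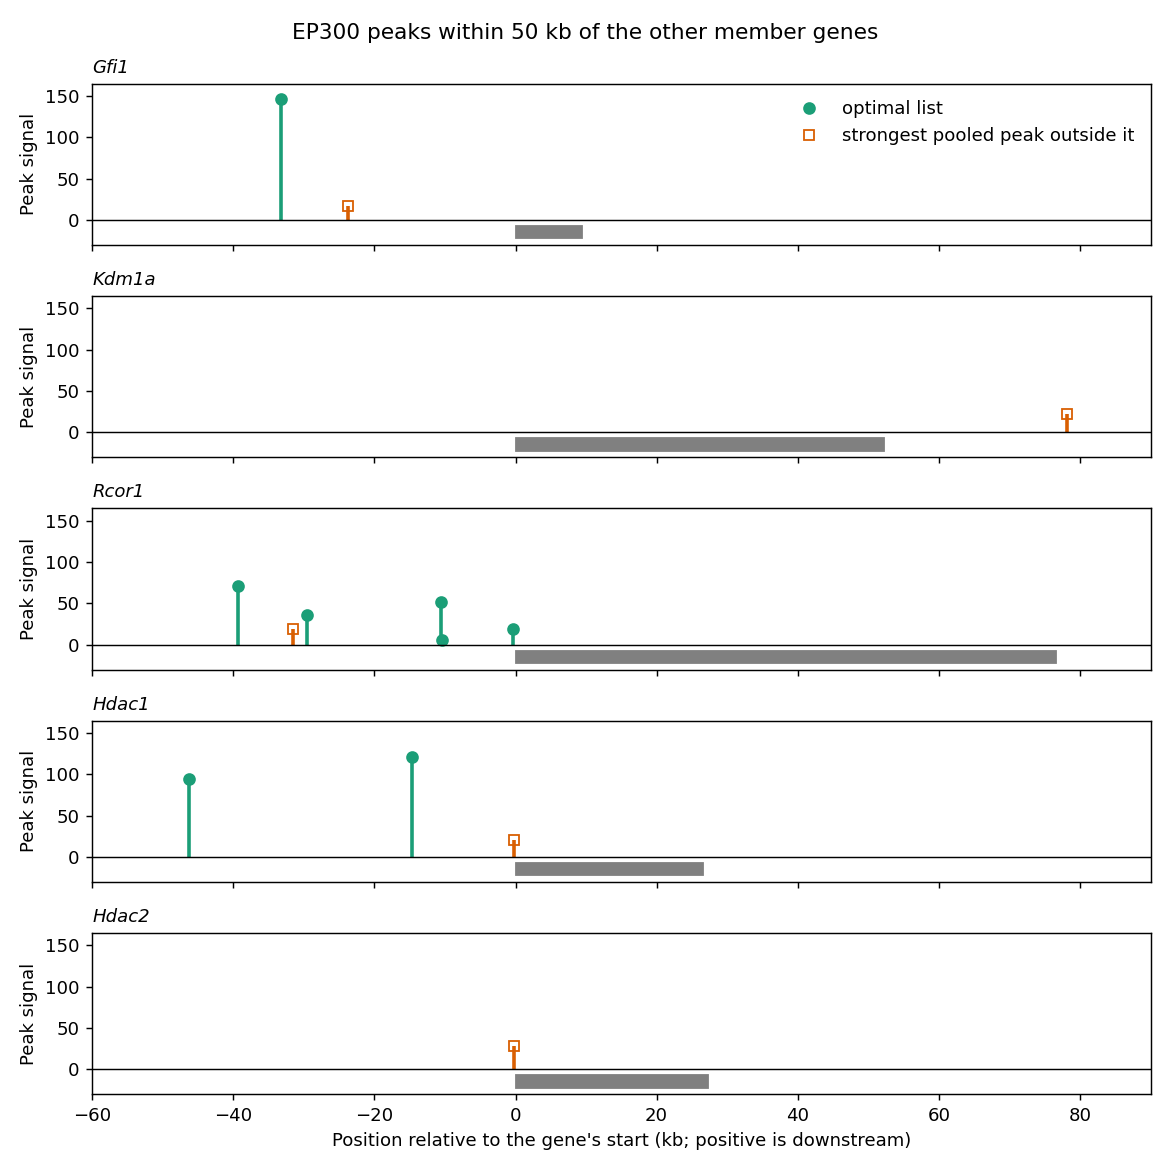
Peak signal (vertical axis, no unit) by position relative to the gene's start (horizontal axis, kb, positive is downstream) for Gfi1, Kdm1a, Rcor1, Hdac1 and Hdac2; filled circles are optimal peaks, open squares the strongest pooled peak outside the optimal list within 50 kb of a TSS, and grey bars the gene bodies. Gfi1, Rcor1 and Hdac1 have optimal peaks upstream of their starts, and Kdm1a and Hdac2 have open squares alone, at 22.3 and 28.7.

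At the edge of the window, the farthest peaks inside it were 46313 bp (Hdac1), 41126 bp (Gfi1b), 39318 bp (Rcor1) and 33304 bp (Gfi1) from a TSS of the member. The nearest optimal peaks outside it were 53640 bp from Hdac1 (signal 184.9, Bsdc1 promoter), 54450 bp from Rcor1 (39.6, in its own intron), 66130 bp from Gfi1 (28.0, Evi5 intron) and 79800 bp from Gfi1b (141.8, Ak8 intron). Hdac2 and Kdm1a were far from any optimal peak, at 234121 bp and 240981 bp.

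The libraries were then set side by side for all 24 peaks. A summit of both libraries lay within 100 bp in 20 of 24, against 84.3% of all optimal peaks. Gfi1b peaks 7, 10 and 15 had a summit within 100 bp in replicate 1 alone, and Rcor1 peak 4 in replicate 2 alone. Gfi1b peaks 10 and 15 overlap peaks 9 and 16. The replicate 2 summits matched to peaks 9 and 16 also lay inside peaks 10 and 15, so replicate 2 was not without signal there. The 4 peaks matched in 1 library had optimal signals between 5.53 and 37.4, below the list's median of 38.5. The 20 shared peaks had the better rank in replicate 2 in 13 cases, in replicate 1 in 6, and the same rank in 1, and for 13 the ranks were within 1.5 times of each other. The widest gap was that of Gfi1b peak 14, with rank 5025 and a signal of 33.7 in replicate 1 and rank 52886 and 6.00 in replicate 2. Only 5 peaks ranked in the first 3000 of both libraries: Gfi1b peaks 6, 8, 11 and 13 and the Gfi1 peak. In the conservative list were 21 of 24, against 78.4%. Both counts are near those of the whole list, and the library lists were used to make the optimal list, so neither is independent of the choice of peaks.

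**Figure D4:**
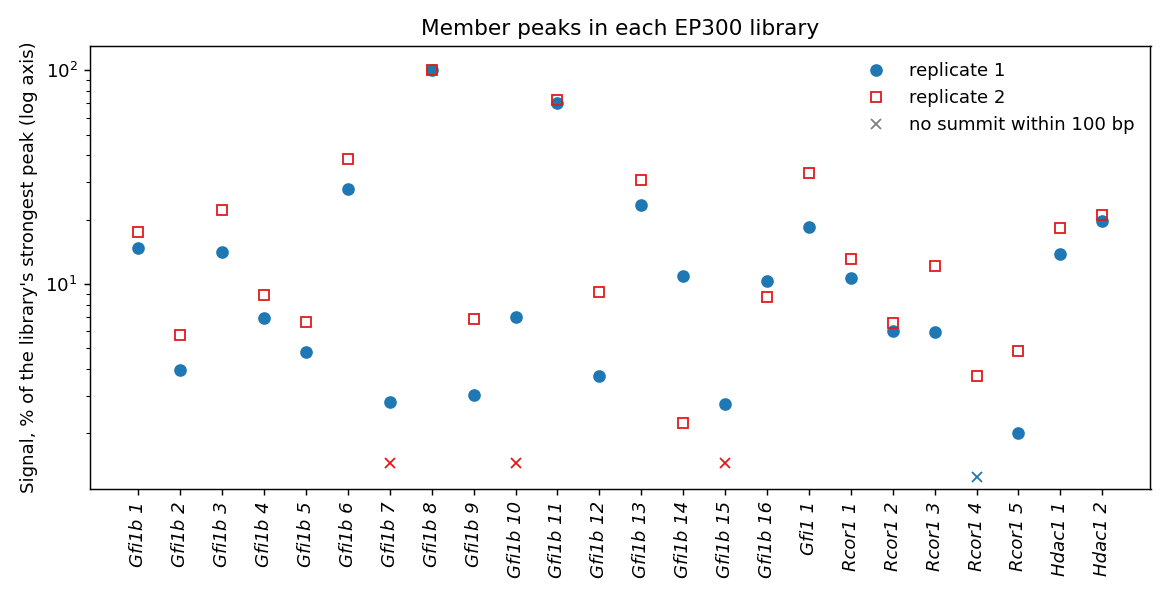
Signal of each member peak as a percentage of the strongest peak of the same library (vertical log axis), for replicate 1 (filled circles) and replicate 2 (open squares); crosses mark peaks with no summit of that library within 100 bp. Gfi1b peak 8 is at 100 in both libraries and peak 11 at 70.1 and 72.5, while Gfi1b peak 14 has 10.9 in replicate 1 and 2.24 in replicate 2.

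By location, 8 of the 24 summits lay within 1 kb of an annotated TSS, against 26.2% of all optimal peaks. Introns held 6, against 44.2%, and intergenic sequence 10, against 25.7%. A summit near a TSS was counted as a promoter summit even where it lay in an exon, as at Gtf3c5, and none of the others was exonic. Only 2 of the promoter peaks were at the promoter of a member, Gfi1b peak 3 and Rcor1 peak 5. Of the 10 intergenic summits, 7 belong to the group downstream of Gfi1b, so the high intergenic share is largely that of 1 neighbourhood.

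GATA words were counted next, since GATA1 is the main activator of the red cell genes, and TAL1 joins it on a composite element. Within 100 bp of the summit, 16 of 24 peaks held a GATA word, against 74.7% of all optimal peaks, and 8 held at least 2, against 41.9%. The composite, CTG and GATA with a gap of 7 to 9 bases between them, was in 9, against 32.5%. It can overlap a GATA word, which shares its core. By gene, the GATA word was in 9 of 16 peaks at Gfi1b, 1 of 1 at Gfi1, 4 of 5 at Rcor1 and 2 of 2 at Hdac1. The share over the members was near that of the list, with neighbouring peaks that do not count as independent.

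The words lay as follows in the strongest peaks. In Gfi1b peak 8 there were 3 GATA words, TGATAA from 70 to 65 bases before the summit and a facing pair, TGATAA and TTATCA, from 23 to 28 and from 31 to 36 bases after it. Gfi1b peak 11 held 2, at 80 to 75 bases before and 75 to 80 bases after the summit. The latter sits in a composite that begins 64 bases after it. Gfi1b peak 13 had 1, which ended 4 bases before the summit. In the Gfi1 peak 2 words overlap in a single run of capitals, from 34 to 24 bases before the summit. Rcor1 peak 1 had 2, at 6 to 1 bases before and 29 to 34 bases after the summit, and Hdac1 peak 2 had 1, at 25 to 30 bases after.

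Gfi1b peak 6 was the exception among the strong member peaks, with none of the GATA words searched. Its window does hold GATAA after a C, a form that those words leave out. Of the 1704 peaks in the top 10% by signal (169.9 or more), 94.7% held a GATA word, and of the 3 members in that class 2 did. In the top 5% it was 96.2% of peaks and 2 of 2 members. Below the list's median signal 63.1% of peaks held a GATA word, and 5 of 10 members. Gfi1b peaks 7, 9, 12, 14, 15 and 16, with signals from 12.0 to 55.5, also held none. For peak 12, 59.2% of the window is masked as repeat in the reference.

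AATCAC, a longer form of the core AATC that GFI1 and GFI1B bind, was in 1 of the 24 windows, that of Gfi1b peak 11. The share of all optimal peaks was 6.66%. In peak 11 it lies from 27 to 22 bases before the summit on the minus strand, and shows as GTGATT in the sequence above. The shorter core AATC was not counted, and it does occur in the printed Gfi1b promoter. GFI1B is known to repress its own gene, but binding of GFI1B was not measured here, and a match of 6 letters is a description and not a site.

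Words of other factors were counted in the same windows. The E-box CAGNTG was in 16 of 24 windows, against 47.6%; it can share bases with the composite. The ETS words AGGAAG and CGGAAG were in 6, against 30.6%, and the RUNX word TGTGGT in 4, against 17.9%. The RUNX word occurred 2 times in the Gfi1 peak and also in Gfi1b peaks 12, 13 and 15. The KLF words (CCACACCC or CCACGCCC or CCCCACCC or CCCCGCCC) were in 1, Rcor1 peak 3, against 14.6%. The AP-1 words TGACTCA and TGAGTCA were in 0, against 5.91%. All words were searched on both strands, and a window without a match says only that those letters are not in it. The median GC content of the member windows was 52.7%, against 48.3% for the list.

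The same search was made in the promoters of the 5 members with an entry. In Gfi1b the 250 bases upstream held 1 GATA word, TGATAA, which is also part of a composite. A GATA word was in 26.5% of the 32851 promoters of that length and the composite in 6.13%. None of the promoters of Gfi1, Kdm1a, Rcor1 and Hdac2 held a GATA word or the composite. The Hdac2 promoter held 1 RUNX word (14.0% of promoters), and that of Rcor1 1 KLF (27.4%) and 1 ETS word (39.2%). Of the 2 Gfi1 promoters, 1 held an E-box (44.8%) and the other 1 ETS word, and that of Kdm1a held none of the words. The summit of Gfi1b peak 3 lies inside the printed promoter, and that of the conservative Hdac2 peak lies inside its own.

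The genes around this machinery mostly had an EP300 peak as well. Of 51 further genes in 5 lists, 41 had an optimal peak within 50 kb, against the 53.7% of all protein-coding genes given above. The list for the CoREST and BHC complex had one in 8 of 9 cases, with a median strongest signal of 80.4. It includes Kdm1b, a demethylase related to KDM1A that is not known as a subunit, and without it the count was 7 of 8 and the median 76.1. The strongest were Gse1 (282.0, in its own intron), Kdm1b (215.4, intergenic and 44923 bp from its TSS) and Hmg20b (89.1, in a coding exon of Mfsd12), an HMG box subunit of the complex. Zmym2 had none.

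Subunits of the other deacetylase and corepressor complexes had a peak in 19 of 22 cases, against 53.7% of all protein-coding genes. Their median strongest signal was 112.3. The strongest were at the NuRD genes Mta3 (387.6, intergenic, 47028 bp from its TSS), Mbd2 (252.2, intergenic, 4560 bp) and Mta1 (206.8, in its own intron). Ctbp2, Hdac8 and Sin3b had none.

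The 4 heterochromatin partners all had a peak. Their median strongest signal was 46.1, against 73.5 for all protein-coding genes with a peak. The partners were led by Suv39h1 (159.9, 27683 bp from its TSS), a methyltransferase for lysine 9 of histone H3. Ehmt2 (63.0, inside C2 and Zbtb12, 4282 bp from its TSS), another such enzyme, and Cbx5 (29.2, 464 bp), the reader protein HP1 alpha, followed. Of the 7 other repressor genes with a SNAG domain, 4 had a peak, near the share of 53.7% of all protein-coding genes. Their median strongest signal was 61.5, also below 73.5. The 4 were led by Scrt2 (168.3, intergenic, 41617 bp from its TSS), Insm2 (75.6, in an intron of Ralgapa1, 23519 bp) and Scrt1 (47.4, intergenic, 1288 bp). Each of these encodes a factor known from neurons or endocrine cells. Insm1, Snai2 and Snai3 had none. Of 9 genes reported elsewhere as targets of GFI1 or GFI1B, 6 had a peak, against the same 53.7%, with a median of 137.8. The strongest were at Bcl2l1 (320.3, in its own intron), which encodes the survival protein BCL-XL, Myb (273.8, intergenic, 35795 bp from its TSS), a regulator of progenitors, and Tgfbr3 (186.2, in its own intron), a receptor of the TGF beta family. Cdkn1a, Meis1 and Socs1 had none.

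The genes most like Gfi1b were sought by 3 quantities on a log2 scale: the number of peaks within 50 kb, the strongest signal and the summed signal. The measure was the Euclidean distance between genes, over 1 tissue, with 1 gene kept for each set of shared peaks. Each set was represented by the gene whose TSS is nearest to its strongest peak, with that gene's own values. The closest was Cpeb4, which encodes an RNA-binding protein of late red cell maturation, at a distance of 0.30 with a strongest signal of 486.7 and 14 peaks. Ap5s1, an adaptor protein gene, followed at 0.33 with 491.8 and 14 peaks, and the surface antigen gene Cd24a at 0.52 with 468.2 and 13 peaks. Zfpm1, which encodes FOG1, the partner of GATA1, had 505.5 and 21 peaks, and Nprl3, whose introns hold enhancers of the alpha-globin genes, had 544.1 and 21 peaks, both at a distance of 0.55. Their strongest peaks held from 2 to 5 GATA words within 100 bp, as against 3 in Gfi1b peak 8. All of these peaks are in the top 5% of the list by signal, where 96.2% held a GATA word.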

How the data were processed

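EP300 ChIP-seq peak lists from 2 libraries of embryonic liver were read in narrowPeak format on mm10 (GRCm38). The authors deposited 1 list per library, a pooled list, and a conservative and an optimal list made from them. The peak signal and the score (up to 1000) are the authors' deposited values. The sources used here do not name the aligner, peak caller or thresholds, and no read totals were used, so depth is unknown. Columns left unmatched to a sample numbered 0.

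Summits were assigned to genes with GENCODE vM21 (Python 3.11.15, pandas 2.3.3, numpy 2.4.6, matplotlib 3.10.9). A library summit matched within 100 bp, and the strongest was taken. Promoter summits lay within 1 kb of any TSS. Motifs were searched within 100 bp of summits. The search and assignment code was tested on simulated data.

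The members and the gene lists were chosen with earlier results of these data known. Named were all members, genes that share their printed peaks, the 3 strongest genes of each list with up to 3 lacking a peak, and the 5 genes most like Gfi1b. Alternatives were other peak lists, each library alone, other windows and start sites, and the nearest gene. No test was made, since the design has 1 group.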

Additional observations from a re-analysis of the deposited data

How the results depend on the processing

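The number of peaks near the members was 24. It was 14 when optimal peaks above the median signal alone were kept and 13 when each peak was given only to its nearest protein-coding gene. The first choice shortens the list, and the second keeps it whole but leaves peaks nearer to another gene out of the count. Under the second, Gfi1b had 8 peaks in place of 16, Hdac1 0 in place of 2 and Rcor1 4 in place of 5, and Gfi1 kept 1. With as many top peaks of 1 library alone the number of peaks was 24 without replicate 1 and 25 without replicate 2. A peak was present at 6 members each time. The number of members with a peak was 4, and it was 6 in the conservative list and among the strongest pooled peaks, and 3 with a window of 20 kb or the nearest gene. Kdm1a gained 1 peak in the conservative list, the pooled list's top and each library alone, and Hdac2 from 1 to 2. Gfi1b had 13 or 14 peaks in those lists. Gfi1, with 1, had 2 without replicate 2, 0 within 20 kb and 3 within 100 kb. Recurrence in both libraries was 17 of 24 with summits within 50 bp and 23 within 250 bp. The GATA word was in 14 of 24 peaks within 50 bp of the summit, against 66.4% of all optimal peaks. Promoter summits numbered from 6 to 10 over the windows and start sites tried. Of the 51 listed pathway genes 35 had a peak within 20 kb, against 38.6% of all protein-coding genes. No read totals were used, so the precision of single signals is unknown.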
